A study of Caenorhabditis elegans with 2 samples.

Results

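The distal DVE-1 peaks of late C. elegans embryos were the thresholded peaks that lay away from gene starts, tRNA and snoRNA genes and telomere-like repeats. A peak was counted as distal when its summit lay outside every window from 1000 bp upstream to 200 bp downstream of a protein-coding gene's 5′ end, more than 200 bp from any tRNA or snoRNA gene, and with fewer than 3 copies of the telomere hexamer unit within 100 bp. Of 1447 thresholded peaks, 1440 were nuclear, and 801 of these lay outside the promoter windows. A nearby tRNA or snoRNA gene removed 168 of the 801 and telomere units removed 243, which left 390 distal peaks: 178 intergenic, 139 intronic, 43 in exons of non-coding genes, 17 in coding exons, 12 in 5′ UTRs and 1 in a 3′ UTR.

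The samples form 1 group of 2 biological replicates of strain OP398, which carries the integrated transgene wgIs398 expressing DVE-1 with GFP and FLAG at its C-terminus on the mutant background unc-119(tm4063) III. Sonicated chromatin of whole hermaphrodite late embryos was pulled down with an anti-GFP antibody, so the cells in which a site was occupied cannot be told apart. The replicates were matched to the same control, and untagged worms were not analysed here. The lists hold no read totals, so the depth behind each value is unknown, and each signal is the value of the authors' peak caller, compared here only within its own list.

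DVE-1 is a homeodomain protein related to the vertebrate SATB chromatin organizers. It acts in the mitochondrial unfolded protein response, where it gathers in nuclei and works with the ubiquitin-like protein UBL-5 and the transcription factor ATFS-1. Distal elements in C. elegans commonly lie in long introns or in the space between genes, and many genes also have further transcript starts within their own introns. The X chromosome additionally holds recruitment elements, X-linked sites at which the dosage compensation complex loads in hermaphrodites, and these carry a known short sequence motif.

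The 151 bases centred on a summit are shown for the 4 strongest intronic and the 4 strongest intergenic peaks, since the strongest distal sites shared short words. An intergenic site is named by the gene with the nearest protein-coding 5′ end. Each sequence is the plus strand of WBcel235 (ce11), from the RefSeq genome, with capitals on GCGCAGGG (called X word 1 here), GCGAAGGG (X word 2), CTGCGTCT (the CT word) and GAGAGA (the GA unit) on either strand.
zfp-1 intron, chrIII:8802058-8802208: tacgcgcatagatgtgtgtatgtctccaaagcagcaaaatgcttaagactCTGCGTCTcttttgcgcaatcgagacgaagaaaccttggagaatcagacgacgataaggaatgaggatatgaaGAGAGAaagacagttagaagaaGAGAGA
mom-1 intron, chrX:6296510-6296660: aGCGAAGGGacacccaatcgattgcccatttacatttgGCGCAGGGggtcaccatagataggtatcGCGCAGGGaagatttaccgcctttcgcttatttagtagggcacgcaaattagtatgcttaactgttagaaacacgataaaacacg
nhr-3 intron, chrX:14560353-14560503: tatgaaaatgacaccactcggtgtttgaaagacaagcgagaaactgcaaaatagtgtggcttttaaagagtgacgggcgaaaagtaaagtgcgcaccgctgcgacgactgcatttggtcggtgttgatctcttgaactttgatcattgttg
Y41G9A.17 intron, chrX:2997041-2997191: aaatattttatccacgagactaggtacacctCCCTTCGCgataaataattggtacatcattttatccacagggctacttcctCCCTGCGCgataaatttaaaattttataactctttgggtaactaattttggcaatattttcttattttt
intergenic near W02H3.3, chrX:11094124-11094274: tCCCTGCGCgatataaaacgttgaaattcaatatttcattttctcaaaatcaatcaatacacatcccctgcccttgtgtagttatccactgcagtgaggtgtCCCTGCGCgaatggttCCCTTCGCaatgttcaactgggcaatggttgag
intergenic near F55G7.5, chrX:11937480-11937630: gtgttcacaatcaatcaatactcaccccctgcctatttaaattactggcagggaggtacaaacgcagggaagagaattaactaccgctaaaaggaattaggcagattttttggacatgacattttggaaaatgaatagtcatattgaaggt
intergenic near K02D3.1, chrX:13700777-13700927: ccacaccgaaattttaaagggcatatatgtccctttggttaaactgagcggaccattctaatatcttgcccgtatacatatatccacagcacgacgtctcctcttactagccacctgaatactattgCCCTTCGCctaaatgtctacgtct
intergenic near gtr-1, chrX:806619-806769: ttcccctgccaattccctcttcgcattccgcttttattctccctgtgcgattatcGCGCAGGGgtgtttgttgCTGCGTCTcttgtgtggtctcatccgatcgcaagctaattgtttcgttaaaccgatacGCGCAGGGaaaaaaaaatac

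Among these 8 sites, 7 were on the X chromosome and 5 of those held an X word in the bases shown. The introns of mom-1 and Y41G9A.17 and the site near W02H3.3 held both X words. The nhr-3 intron and the site near F55G7.5 held none of the 4 words.

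Nearly all of the distal peaks had an overlapping peak in both replicate lists. The thresholded list was called on both replicates, so this overlap was largely set by how the peaks were chosen. A replicate peak overlapped 388 of 390 distal peaks in both replicates (99.5%, 95% interval 98.2 to 99.9), against 99.2% of all 1440 nuclear thresholded peaks. The missing 2 were weak intergenic peaks near Y22D7AR.6 and pitp-1, found in replicate 2 but not in replicate 1. Replicate summits lay a median of 14 bp (replicate 1) and 6 bp (replicate 2) from the thresholded summit. Distal peaks had a median signal of 103 (quartiles 88.3 and 132), against 114 (93.3 and 148) for the other 1050 nuclear peaks, and their ranges overlapped. All intervals on shares are exact Clopper-Pearson intervals, and the limit given beside a count of 0 is 3 counts of the total, which is lower than the exact upper bound. Both cover counting error only and treat sites as separate, although 16 distal peaks overlapped another distal peak.

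Intergenic and non-coding exon summits were more frequent, and coding exon summits less frequent, in the distal peaks than in the eligible bases. Those were all nuclear sequence outside the promoter windows and more than 200 bp from tRNA and snoRNA genes. Bases with 3 or more telomere units within 100 bp were not taken out of them, although no distal summit could lie there. Intergenic summits made up 45.6% of the distal peaks (95% interval 40.6 to 50.7), against 29.0% of eligible bases. Non-coding exons held 11.0% (8.10 to 14.6), against 3.53% of eligible bases, and 5′ UTRs held 3.08% (1.60 to 5.31), against 1.04%. Introns held 35.6% (30.9 to 40.6), against 38.2%, so the intronic share was within its counting interval of the eligible sequence. Coding exons held 4.36% (2.56 to 6.89), against 25.2%.

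**Figure D1:**
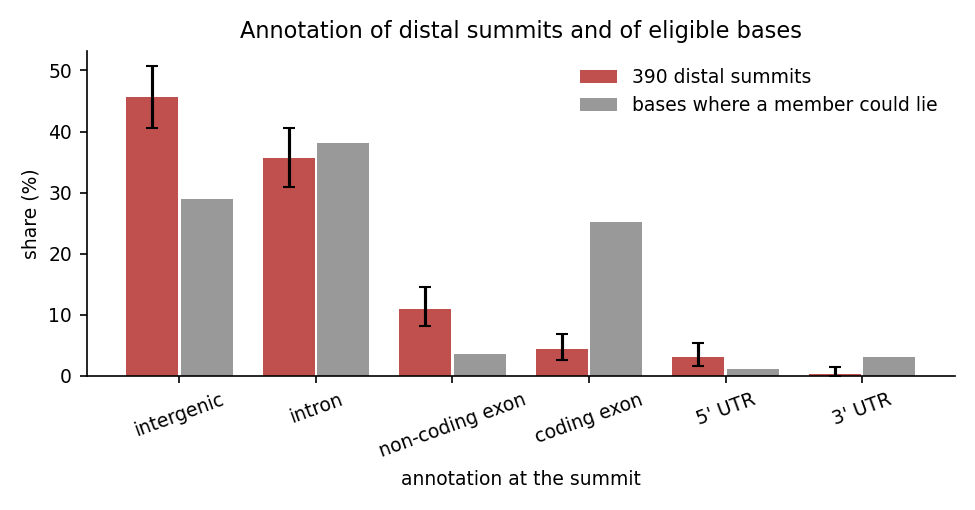
Share of the 390 distal summits (red, with exact 95% intervals) and of the eligible bases (grey) by annotation at the summit, in percent. Bases near telomere units were not taken out of the eligible bases. Intergenic sequence held 45.6% of summits and 29.0% of bases, and coding exons 4.36% of summits and 25.2% of bases.

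Intronic and intergenic distal peaks had nearly the same signal. The median was 103 in introns (lowest 79.0, highest 343) and 102 between genes (lowest 79.0, highest 368), a difference of 1.35. In the replicate lists, intronic medians were 43.2 in replicate 1 and 62.5 in replicate 2, and intergenic medians were 43.3 in replicate 1 and 63.9 in replicate 2. The sign of the difference was therefore not the same in the replicate lists as in the thresholded list, and 6 of 10 other choices of window, filter or list turned it negative. Non-coding exon peaks had a median of 108, coding exon peaks 104 and 5′ UTR peaks 103.

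**Figure D2:**
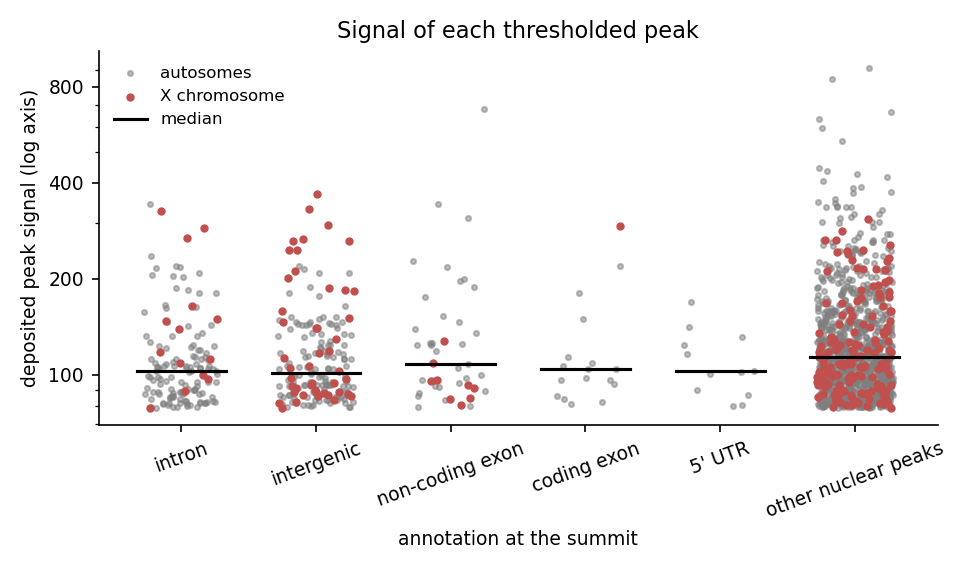
Deposited signal of each thresholded peak (log axis) by annotation at the summit, for distal peaks in 5 classes and for the 1050 other nuclear peaks. Red points are on the X chromosome, grey points on autosomes, and bars mark medians of 103 in introns, 102 between genes and 114 in the other peaks.

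The X chromosome held 12 of the 20 strongest distal peaks, although its share of all distal peaks was close to its share of eligible bases. It had 70 of the 390 distal peaks (17.9%, 95% interval 14.3 to 22.1), against 18.5% of eligible bases, and its median signal was 108, against 102 on the autosomes. Among the 30 strongest, 13 were X-linked, and the strongest of all was autosomal. Chromosome V had the fewest, 39 peaks or 2.52 per Mb of eligible sequence, against 4.59 on chromosome IV and 6.66 on chromosome III.

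Of the 14 X-linked distal peaks with a signal above 200, 11 carried an X word. X word 1 is a stretch of the known recruitment motif of the dosage compensation complex. X word 2 was taken from counts of words at these same summits. Both were searched after the summits had been seen, so their shares are descriptions with no test. X word 1 occurred within 100 bp of 9 of 70 X-linked distal summits (12.9%, 95% interval 6.05 to 23.0) and of 1 of 320 autosomal ones (0.312%), against 0.0605% of all eligible windows of the same length. X word 2 occurred at 10 of 70 X-linked summits (14.3%, 7.07 to 24.7) and at 0 of 320 autosomal ones, where a count of 0 allows a share of up to 0.938%, against 0.122% of eligible windows. Of the other 1050 nuclear peaks, 5 held X word 1 and 3 held X word 2. Most of these were among the 548 promoter summits away from telomere-like repeats and tRNA and snoRNA genes, where 4 held X word 1 and 3 held X word 2. Only 159 of the 1050 were X-linked, and the words were not counted in those alone. The single autosomal distal site with X word 1 lay in the snRNA gene R07E5.16 within dhc-4, a dynein heavy chain gene, and had a signal of 228.

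X-linked distal peaks with an X word had higher signal than X-linked distal peaks with neither, in both replicates. The words were searched after these summits had been seen, so this difference is a description with no test. The replicate values belong to the same peaks and are no separate support for it. The 14 peaks with X word 1 or X word 2 had a median of 254 (lowest 88.6, highest 368), against 99.1 (79.0 to 332) for the 56 with neither. In replicate 1 the medians were 111 with a word and 43.7 without, and in replicate 2 they were 141 with a word and 60.4 without. Of the 14, 11 had a signal above 200, while the sites near F43E12.1 (94.5), WBGene00020828 (94.0) and srg-64 (88.6) were below the distal median of 103, so the groups overlapped. Only 3 of the 14 X-linked distal peaks above 200 lacked both words: those near F55G7.5 and F19H6.5 and in nhr-3. Recruitment elements mapped by other studies were not compared here.

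**Figure D3:**
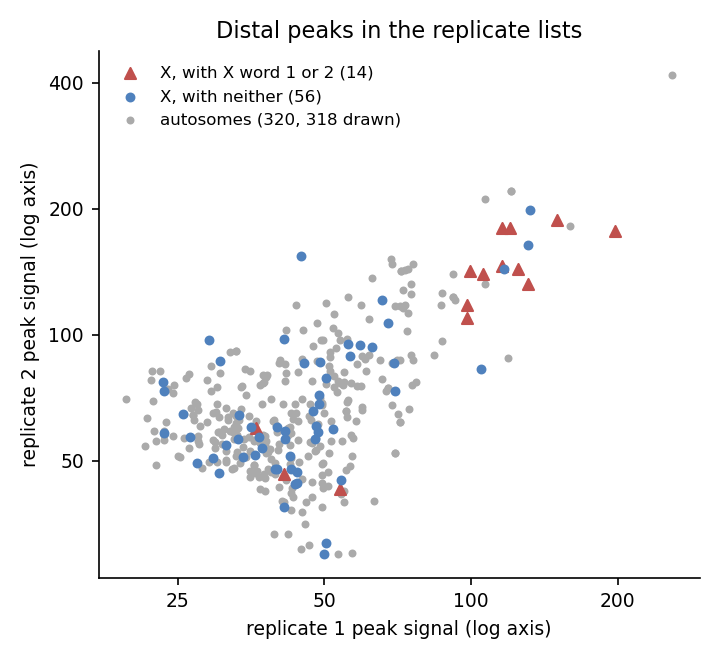
Signal of each distal peak in the list of replicate 1 (horizontal) and of replicate 2 (vertical), both on log axes. Triangles are X-linked peaks with X word 1 or 2, blue points other X-linked peaks and grey points autosomal peaks, and 11 of the 14 triangles lie at the upper right with the strongest peaks.

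The words were also counted from their copies in the genome. Since they were chosen after these summits had been seen, the counts at distal summits restate the shares above. Of 66 eligible copies of X word 1 on the X chromosome, 13 lay within 100 bp of a distal summit (19.7%, 95% interval 10.9 to 31.3), against 1 of 180 autosomal copies (0.556%, 0.0141 to 3.06). Of 120 eligible X-linked copies of X word 2, 10 did (8.33%, 4.07 to 14.8), against 0 of 383 autosomal copies, where a count of 0 allows up to 0.783%. At summits of the whole pooled list, of any class, the gap between the chromosomes was smaller: 33.3% of X-linked and 14.4% of autosomal copies of X word 1 lay within 100 bp of one, and 16.7% of X-linked and 5.74% of autosomal copies of X word 2. Weaker distal peaks of the pooled list, ranked 1448 to 5000 and absent from the thresholded list, were counted too: X word 1 was at 8 of 319 X-linked summits and 5 of 1414 autosomal ones, and X word 2 at 2 of each. At ranks 5001 to 10000, X word 1 was at 0 of 571 X-linked summits and 5 of 2714 autosomal ones.

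The strongest X-linked sites stood high in both replicate lists. The convergent intergenic site near W02H3.3 had a signal of 368 (197 in replicate 1 and 177 in replicate 2). The intron of mom-1, the Porcupine gene needed for Wnt secretion, had 327 (150 and 188 in replicates 1 and 2). A coding exon of pks-1, a polyketide synthase gene, had 293 (116 and 180), and it was 1 of 2 coding exon peaks above 200. In the list of replicate 1 these 3 sites stood at places 10, 23 and 57, and in that of replicate 2 at places 43, 32 and 39.
The intron of nhr-3, a nuclear hormone receptor gene, had 288 (131 and 164), and that of Y41G9A.17 had 268 (131 and 132). Between genes, the site near F55G7.5 had 332 (132 and 199), the site near K02D3.1 had 294 (120 and 180) and the site near gtr-1 had 267 (125 and 144). Sites near ZK899.6 and F19H6.5 had 262 each, and those near F22H10.2 and F20B6.9 had 247 and 246. The site 4928 bp upstream of xol-1, the switch gene of sex determination, had 212 (98.0 and 118) and held X word 1.

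Across all chromosomes, 2 other short words were frequent at distal summits. The GA unit repeats within GA-rich tracts, which the zinc finger protein EOR-1 is known to bind. It was on a list of 12 motifs searched here. The CT word was added after counting words at the summits and is a description with no test. Sites with the CT word within 50 bp of the summit are shown with the same capitals, the 2 strongest intronic ones and the strongest intergenic one of chromosomes II to V not yet printed.
Y111B2A.12 intron, chrIII:12612577-12612727: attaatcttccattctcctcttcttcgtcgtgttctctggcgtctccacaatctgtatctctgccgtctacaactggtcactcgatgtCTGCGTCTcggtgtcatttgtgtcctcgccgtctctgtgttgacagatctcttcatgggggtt
mdt-26 intron, chrII:5661874-5662024: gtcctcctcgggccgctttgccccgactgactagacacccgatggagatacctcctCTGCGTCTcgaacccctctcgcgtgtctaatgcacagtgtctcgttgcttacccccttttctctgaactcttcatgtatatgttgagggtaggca
intergenic near Y39E4B.6, chrIII:13068459-13068609: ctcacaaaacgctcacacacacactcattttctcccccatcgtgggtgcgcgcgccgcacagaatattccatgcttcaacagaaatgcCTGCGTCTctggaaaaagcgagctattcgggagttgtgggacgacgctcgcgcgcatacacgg

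The GA unit was at 220 of 390 distal summits (56.4%, 95% interval 51.3 to 61.4), against 39.1% (34.9 to 43.3) of the 548 promoter summits away from telomere-like repeats and tRNA and snoRNA genes, and 9.59% of eligible windows. The CT word was at 102 distal summits (26.2%, 21.9 to 30.8), against 17.0% (13.9 to 20.4) of those promoter summits and 0.940% of eligible windows. On the X chromosome alone, the GA unit was at 44.3% of distal summits (32.4 to 56.7), against 9.02% of X-linked windows, and the CT word at 15.7% (8.11 to 26.4), against 0.459%. On the autosomes, the GA unit was at 59.1% (53.5 to 64.5), against 9.72% of autosomal windows, and the CT word at 28.4% (23.6 to 33.7), against 1.05%. Intronic and intergenic summits had similar shares: the GA unit was at 54.7% (46.0 to 63.1) of intronic and 62.9% (55.4 to 70.0) of intergenic summits, and the CT word at 27.3% (20.1 to 35.5) of intronic and 29.2% (22.7 to 36.5) of intergenic summits. The words can share letters, and 83 of the 102 windows with the CT word also held the GA unit. Neither word was found at 151 distal summits. Summit windows were richer in G and C (median 45.8%) than eligible windows (35.3%), and the part of base composition in these shares was not tested.

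**Figure D4:**
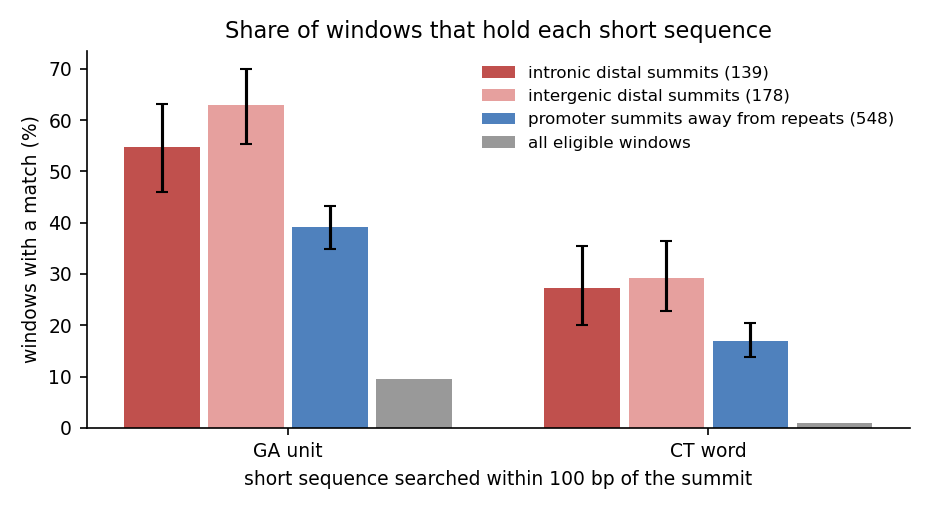
Share of windows reaching 100 bp to each side that hold the GA unit or the CT word, in percent, for intronic and intergenic distal summits, promoter summits away from repeats, and all eligible windows, with exact 95% intervals on the summits. Intronic and intergenic distal summits reach 54.7% and 62.9% for the GA unit, against 9.59% of eligible windows.

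Copies of both words gathered within about 100 bp of the summit. The CT word was chosen by counting words at these same summits, so its gathering there was partly set by that choice. Only the GA unit was on the list beforehand. Of 158 copies of the CT word within 300 bp of a distal summit, 77 lay within 50 bp, 46 lay further out but within 100 bp, and 2 lay more than 250 bp away. For the GA unit the counts were 556, 450 and 48 of 1570 copies. Overlapping matches were each counted, so a long GA tract gives many copies. Counted by peak, 269 distal peaks had a GA unit within 300 bp, and 170 had one within 50 bp. Distal peaks with the CT word had a median signal of 110, against 99.4 without it, in replicate 1 the medians were 43.6 with it and 43.2 without it, and in replicate 2 they were 68.3 with it and 61.9 without it. The GA unit gave medians of 104 with it and 99.3 without it, but the order turned in replicate 1, with 42.6 with it and 44.9 without it, against 64.6 with it and 61.7 without it in replicate 2. The 100 strongest thresholded peaks held 4 distal peaks with the GA unit and 15 without it. Of these 19 distal peaks, 12 were X-linked, and 9 of the 12 carried an X word. How far the X-linked sites account for the GA unit counts was not tested. The differences in median with the CT word and with the GA unit were both smaller than that between X-linked peaks with and without an X word.

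**Figure D5:**
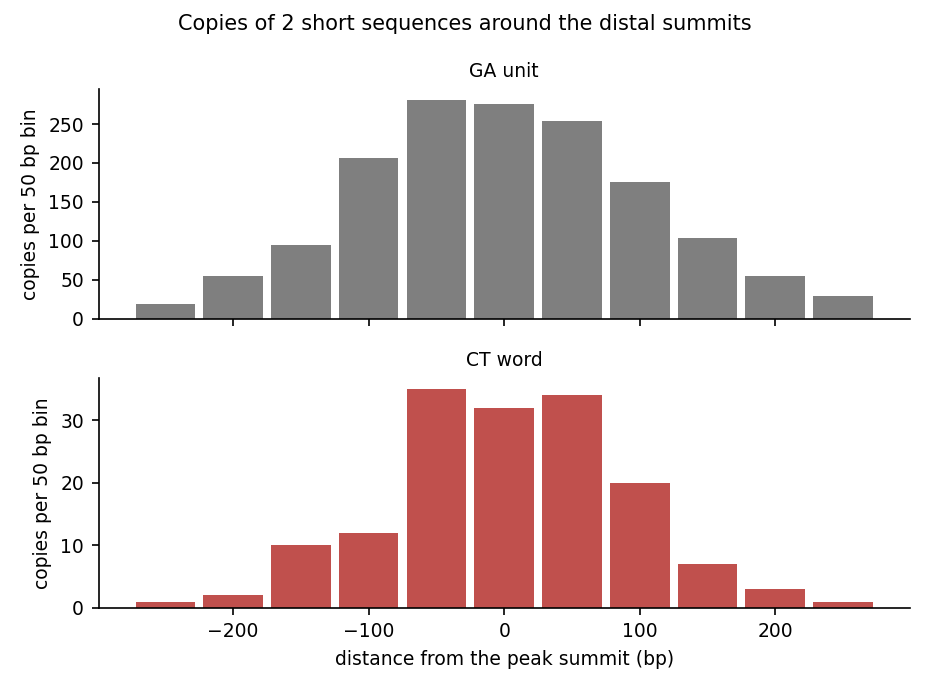
Copies of the GA unit (top) and of the CT word (bottom) per 50 bp bin by distance from the summit, summed over the 390 distal peaks. Overlapping matches of the GA unit are each counted, so long tracts add many copies. The bins within 75 bp of the summit hold the most copies, and the outermost bins the fewest. The CT word was chosen from counts at these same summits.

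The words became rarer in weaker distal peaks. The CT word was chosen from counts at the thresholded distal summits, so its lower share outside that list was partly set by that choice. The GA unit was on the list beforehand. In the pooled list, the CT word was at 9.23% of 1733 distal summits ranked 1448 to 5000, at 3.17% of 3285 ranked 5001 to 10000 and at 1.49% of 7528 ranked 20001 to 30000. The GA unit was at 35.3%, 19.8% and 11.2% of the same summits, the last value being close to its share of eligible windows.

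Of the other 11 motifs on the list, 4 had shares whose intervals lay above the eligible windows. GATAAG, the site of GATA factors that specify the intestine, was at 10.3% of distal summits (95% interval 7.43 to 13.7), against 6.96% of windows, but the interval held the window share without the X chromosome (9.69%, 6.68 to 13.5) and among peaks at or above the median signal (7.69%, 4.04 to 13.1). The E-box CACGTG was at 7.44% (5.04 to 10.5), against 3.32%. The GC-rich words GGGCGG and GCGCGC were at 45 of 390 summits (95% interval 8.54% to 15.1%) and 39 of 390 (7.21% to 13.4%), against 3.01% and 1.21%. The AT-rich words were below: TAATTA, a core of many homeodomain sites, was at 2.56% (1.24 to 4.66), against 9.08%, TTTAAA at 6.15% (3.98 to 9.02), against 29.0%, and the CCAAT-box word ATTGG at 27.2% (22.8 to 31.9), against 36.9%. The intervals of the rest held the window shares: CAGCTG at 3.85%, against 3.88%, TGACTCA at 1.54%, against 1.77%, TGACGT at 7.44%, against 6.27%, and GTAAACA at 3.33%, against 2.16%. For the E-box words CACGTG and CAGCTG the counts differed between the classes: CACGTG was at 16 of 139 intronic summits (11.5%, 6.72 to 18), against 2.91% of intronic windows, and at 8 of 178 intergenic ones (4.49%, 1.96 to 8.66), against 2.71% of intergenic windows. CAGCTG was at 1 intronic summit (0.719%, 0.0182 to 3.94), against 2.98% of intronic windows, and at 12 intergenic ones (6.74%, 3.53 to 11.5), against 2.83% of intergenic windows. The difference between the classes was picked out after the counts were seen and was not tested. A match says only that the letters are present.

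Intronic distal summits lay in long introns. The intron at the summit had a median length of 4287 bp (quartiles 1630 and 8198), against 997 bp (457 and 2660) for eligible intronic bases, and 82.7% (95% interval 75.4 to 88.6) lay in introns over 1000 bp, against 49.9% of those bases. First introns held 47 of the 139 summits (33.8%, 26.0 to 42.3), against 22.7% of eligible intronic bases. The interval held 22.7% with promoter windows at every transcript 5′ end (27.9%, 19.5 to 37.5) and among peaks at or above the median signal (30%, 17.9 to 44.6). First-intron peaks had the same median signal as those in later introns, 103 each, but every intronic peak above 200 was in a later intron.

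Some intronic summits lay next to an alternative transcript start, the 5′ end of a protein-coding transcript other than that of its gene. The window from 1000 bp upstream to 200 bp downstream of such a start held 35 of 139 intronic summits (25.2%, 95% interval 18.2 to 33.2), against 10.8% of eligible intronic bases. Among peaks at or above the median signal it held 7 of 50 (14%, 5.82 to 26.7), an interval that holds 10.8%. Of the 35 summits, 34 lay upstream of the start, where most of the window lies, and 14 of them within 300 bp, with a median distance of 421 bp. Within 200 bp of a start on either side, the share was 7.19% (3.50 to 12.8), against 3.26% of bases. Hosts with any alternative start held 81.3% (73.8 to 87.4) of intronic summits, against 55.6% of bases. Peaks in an alternative-start window had a median signal of 90.6, against 105 for the intronic peaks elsewhere. Such windows also held 8 of the 12 distal 5′ UTR summits, 6 of the 43 in non-coding exons, 1 of the 17 in coding exons and the 1 in a 3′ UTR. The share of eligible bases of these classes in such windows was not counted, so these counts have no background.

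The strongest of these was in zfp-1, which encodes the worm relative of the AF10 chromatin protein. Its summit lay in intron 9, 686 bp upstream of the start of F54F2.2c.2, with a signal of 343 (160 in replicate 1 and 182 in replicate 2). A second zfp-1 peak, in intron 4, had 205 (92.8 and 121). T24B8.3 had 219 (73.2 and 143), 433 bp upstream of a start, miz-1 had 180 (87.2 and 96.5), and zip-2, a bZIP gene of the infection response, had 180 (56.0 and 123), 249 bp upstream.
F53C11.5 followed with 163 (43.8 and 118), 254 bp upstream of a start. A peak in intron 1 of skn-1, the oxidative stress regulator, had 120 (49.0 and 70.7) and lay 532 bp upstream of the start of T19E7.2c.1. Y111B2A.12 had 114, nurf-1, a chromatin remodeller subunit gene, had 108, unc-108, the Rab2 gene, had 106, and arrd-6 had 104. From skn-1 on, the values were close to the distal median of 103.

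Other strong intronic peaks lay outside such windows. They were in Y111B2A.12 (236), gcy-37, a soluble guanylyl cyclase gene (218), pqn-41, which encodes a glutamine-rich protein of linker cell death (216), Y55F3BR.1 (209), mdt-26, a Mediator subunit gene (204), and dpy-1 (202). A second gcy-37 peak had 187 and lay in the same intron 6. The peak in Y55F3BR.1 stood at place 52 in the list of replicate 1 and at place 364 in that of replicate 2.

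Intergenic distal summits lay at distances from gene starts that were like those of the sequence around them. The nearest protein-coding 5′ end was a median of 2637 bp away (quartiles 1552 and 3945, highest 13352), against 2755 bp (1692 and 4624) for eligible intergenic bases. The summit was upstream of that 5′ end for 139 of 178 (78.1%, 95% interval 71.3 to 83.9), against 67.3% of bases. Flanking genes in tandem surrounded 61.2% (53.7 to 68.4), divergent genes 29.2% (22.7 to 36.5) and convergent genes 9.55% (5.66 to 14.9), against 53.5%, 30.5% and 15.7% of eligible intergenic bases. Autosomal examples were the site near ins-13, an insulin-like gene, with 219 (71.7 in replicate 1 and 142 in replicate 2), the site near CC8.2 with 215 (68.7 and 152), and the site near mtm-3, a myotubularin phosphatase gene, with 209 (72.6 and 128).

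Non-coding exon summits included the strongest distal peak. It lay in the ncRNA gene Y71A12B.26 within Y71A12B.12, 243 bp upstream of an alternative start of that gene, with a signal of 679 (259 in replicate 1 and 418 in replicate 2), rank 3 of all thresholded peaks. The ncRNA gene T07H3.9 within bath-33 had 342 (121 and 221). The RNase P RNA gene rpr-1, inside the Integrator subunit gene ints-8, had 311 (107 and 211). The class "ncRNA" alone accounted for 33 of the 43 peaks, with a median of 109, and pseudogenes for 4, snRNA genes for 2 and lincRNA genes for 2. In all, 80 distal peaks lay in or within 200 bp of an snRNA, miRNA, rRNA, piRNA or other ncRNA gene, and without them 310 distal peaks remained. The share of eligible bases this close to such genes was not counted, so the 80 have no background.

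Distal peaks recurred in the same loci. Another thresholded summit lay within 2000 bp of 72 of 390 distal summits (18.5%, 95% interval 14.7 to 22.7), against 9.81% (8.08 to 11.8) of the other nuclear peaks, and for 51 of the 72 the neighbour was itself distal. Overlapping calls are included: 16 distal peaks overlapped another distal peak, and 16 shared their replicate peak in each replicate list. Part of the recurrence can therefore be single regions called as separate summits. In all, 339 protein-coding genes, 1.70% of 19973, hosted a distal summit or lay nearest to one, 44 of them for 2 or more summits and 6 for 3 or more. Intron 14 of pqn-41, 10372 bp long, held 5 summits with signals of 216, 142, 114, 82.0 and 79.2. The gene aakg-1, a gamma subunit of AMP-activated kinase, had 2 intronic and 3 upstream summits with signals of 143, 143, 95.1, 89.1 and 85.2, of which a pair shared a single peak in each replicate list.
The gene let-526, a SWI/SNF subunit, held 4 summits in different parts of its body, from 83.9 to 126. The casein kinase gene kin-20 had 2 summits in intron 1, with 148 and 139, and another upstream with 83.8, and T28B11.1 had 3, from 90.0 to 127. None of these 5 loci held more than 1 summit above 200.

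The 339 genes were read against 19 gene lists, with 1.70% of all protein-coding genes as the background. Long genes offer more sequence for a summit, so the lists' shares were not adjusted for length. Transcription factor lists other than homeobox genes had shares above that background: 11 of 79 C2H2 zinc finger and bZIP genes (13.9%), 5 of 52 forkhead, T-box, GATA and Sox genes (9.62%), 3 of 41 bHLH genes (7.32%) and 13 of 274 nuclear hormone receptor genes (4.74%). Their strongest peaks were at zfp-1 (343), zip-2 (180) and sptf-3 (135), at fkh-7 (157), egl-27 (104) and pha-4, the pharynx FoxA gene (90.9), at hif-1 (120), the hypoxia factor, hlh-30, the TFEB relative, and mdl-1 (103 each), and at nhr-3 (288), nhr-61 (152) and nhr-20 (143). Lists were drawn up by gene symbol, so the 11 genes of the C2H2 and bZIP list include zfp-1. Its product, the AF10 relative named above, is not a C2H2 or bZIP factor, and without it that list is led by zip-2. None of 100 homeobox genes was among the 339, where a count of 0 allows up to 3%.
Signalling genes of the Wnt, Notch, TGF-beta, EGF and FGF pathways numbered 6 of 66 (9.09%), led by mom-1 (327), sma-9 (151) and the TGF-beta receptor gene sma-6 (98.7). Synaptic genes numbered 4 of 55 (7.27%), led by unc-64 (99.9), unc-104 (96.1) and snt-4 (90.4), muscle genes 2 of 58 (3.45%), dyb-1 (87.2) and lev-11 (81.6), and axon guidance and adhesion genes 2 of 69 (2.90%), the cadherin gene hmr-1 (122) and plx-1 (97.8). Neuropeptide and insulin genes numbered 3 of 145 (2.07%), ins-13 (219), nlp-40 (106) and nlp-30 (82.1).

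Regulators of the mitochondrial unfolded protein response, the pathway DVE-1 is known for, gave 2 of 28 genes (7.14%), and both sites were intergenic. The histone demethylase gene jmjd-3.1 had a site 6468 bp upstream with a signal of 82.5 (29.5 in replicate 1 and 50.8 in replicate 2), and lmd-3 had a site 1026 bp upstream with 97.0 (40.1 and 53.0). None of 13 mitochondrial chaperone and protease genes was among the 339, where a count of 0 allows up to 23.1%, so the list is too short to show a low share. No distal peak lay within 20 kb of dve-1 or unc-119, the genes behind the transgene and the strain's marker, and the nearest lay 373 kb and 80.8 kb away.
Several other lists had shares below 1.70%: 6 of 1365 chemoreceptor genes (0.440%), led by srh-11 (187), srh-284 (143) and srt-52 (115), 3 of 395 F-box, MATH and BATH genes (0.759%), led by bath-33 (342), fbxb-58 (above 200) and bath-44 (94.9), 2 of 253 ion channel and gap junction genes (0.791%), lgc-1 (93.4) and ccb-1 (92.2), 3 of 345 defence genes (0.870%), led by fip-2 (180), clec-91 (128) and clec-125 (96.7), and 1 of 87 Hedgehog-related and Patched-related genes (1.15%, where 1 more gene would pass the background), grl-25 (104). None of 222 collagen and cuticle genes and none of 80 cytosolic ribosomal protein genes was among them, where a count of 0 allows up to 1.35% and 3.75%.

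Signals were similar on the 2 sides of the promoter window limit, while the few peaks at the other limits of the rule differed. Distal summits within 50 bp of a promoter window numbered 11, with a median signal of 109, and the summits of 7 promoter peaks up to 50 bp inside a window had a median of 102. The closest distal summits to a tRNA or snoRNA gene were 230 bp away, in zip-2 (180), and 300 bp away, near xol-1 (212). The closest left-out ones were 131 and 125 bp away and had lower signals (96.1 and 145). Distal summits with 0, 1 and 2 telomere units numbered 371, 17 and 2, with median signals of 104, 92.5 and 113, and the 3 left-out summits with 3 units had a median of 84.7.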

How the data were processed

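ChIP-seq peak lists of 2 biological replicates and of both together were used. The authors deposited each peak as an interval with a signal value and a summit offset, as the files show. No source used here gives the aligner, the peak caller or the settings of the irreproducible discovery rate threshold. Coordinates are in ce11 (WBcel235), with Ensembl release 115 gene models. Lists in ce10 were not used. Members and lists were chosen with earlier results of these data known.

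Summits were classed by promoter window, exon, intron and intergenic sequence in pandas 2.3.3, with intervals from scipy 1.17.1. A peak's replicate value was the strongest replicate peak that overlapped it by at least 1 bp. The 12 listed motifs and 3 words added later were searched on both strands of the summit and 100 bp to each side, and in 390069 eligible windows of that length, end to end. Genes were named for the 12 strongest intronic and intergenic peaks, the 10 strongest at alternative starts, genes with 3 or more summits and up to 3 genes per list. The values of 1 gene named by this rule are not reported here. Shares have exact 95% intervals and no test was run, since the design holds 1 group. Counting rules were tested on simulated data. Alternatives are listed in the closing section.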

Additional observations from a re-analysis of the deposited data

How the results depend on the processing

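The signals and positions rest on the authors' peak calls in 2 replicates, with no read depth. The number of distal peaks, 390, was 156 when only peaks at or above the median signal were kept. Single replicates were cut to their 1440 strongest nuclear peaks, the size of the thresholded list, out of 11568 and 15750 peaks. With that cut they gave 408 to 423 distal peaks, so the similar number was partly set by the cut. The median signal, 103, was 143 for peaks at or above the median signal, and 43.4 to 62.4 on the scales of the single replicates. The intronic share, 35.6%, was 43.5% with promoter windows of 2000 and 500 bp and 30.7% with windows at every transcript start, where alternative starts could not be counted. The intronic minus intergenic difference in median signal, 1.35, was -0.648 with windows of 500 and 100 bp, -3.13 with 2000 and 500 bp, 3.74 with every transcript start, -1.10 above the median signal, -0.785 with no telomere unit, -3.06 without peaks near other small RNA genes, and -0.216 to 0.564 in single replicates; the cause was not tested.

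The share overlapped in both replicates was 100% above the median signal, 97.9% with at least 50% of the peak covered and 93.6% with summits within 100 bp, and could not be given for single replicates. The alternative-start share, 25.2%, was 14% (95% interval 5.82 to 26.7) above the median signal, where the excess over 10.8% of bases was no longer seen, and 7.19% within 200 bp. The intergenic distance, 2637 bp, was 1777 bp with the narrow and 3451 bp with the wide promoter windows. The share with a neighbouring summit, 18.5%, was 13.5% above the median signal, 8.46% within 1000 bp and 33.3% within 5000 bp. The first-intron share was 27.9% to 37.4%, and its interval held the 22.7% of bases with windows at every transcript start and above the median signal. The motifs above the windows, 5, were 4 without the X chromosome and above the median signal, where GATAAG was lost. The number of gene lists moved less than its limit in every alternative run. Leaving out the X chromosome, chosen after the data were examined, took X word 1 to 0.312% of distal summits. In the list of replicate 1 alone, cut to its 1440 strongest nuclear peaks, the GA unit was at 48.5% of distal summits, the CT word at 21.1% and GATAAG at 15.7%. No paired analysis was possible because there is 1 group.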
